A study of Mus musculus with 12 samples.

Results

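The immunity-related GTPases (IRGs) are large interferon-inducible GTPases of the mouse, and 7 of them were followed here in the liver: Irgm1, Irgm2, Igtp, Iigp1, Tgtp1, Tgtp2 and Ifi47. The members were chosen by gene name, and all 7 were found among the 11289 genes of the expression table. Liver RNA of 12 C57BL/6J mice, 8 to 10 weeks old per the labels, had been sequenced, with 4 mice in each of 3 groups. Mice of 2 groups received 15 mg/kg of concanavalin A (Con A) into the tail vein, a lectin of jack beans by which T cells are activated and the liver is injured. After 30 min the Con A + PBS group (the PBS arm) was given PBS and the Con A + hWJ-MSCs group (the hWJ-MSCs arm) was given human mesenchymal stem cells of umbilical cord, from its Wharton's jelly (2000000 cells per the labels), by the intravenous route, and livers were taken 24 h later. Control mice are labelled only as controls, and what they were injected with is not given in the labels. The paper states a lower cell number and younger, male mice. Each library is labelled as the liver of 1 animal, and RNA of the human cells was not analysed separately.

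Of the members, 6 lie on chromosome 11 and Iigp1 lies on chromosome 18 (mm10). Irgm1 (chr11:48861968-48871683, minus strand), Tgtp1 (chr11:48985327-48992258, minus strand), Tgtp2 (chr11:49057194-49064204, minus strand) and Ifi47 (chr11:49076587-49096974, plus strand) form a first cluster. Igtp (chr11:58199556-58207591) and Irgm2 (chr11:58215028-58222779), both on the plus strand, form a second. Iigp1 (chr18:60376029-60392627, plus strand) stands with other IRG genes on chromosome 18. The table gives 1 transcript per gene, and that of Irgm1 is annotated as a processed transcript and not as protein-coding, with 3832 bases in 2 exons.

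IRG proteins are made when interferons, above all interferon gamma, act through their receptors and the JAK kinases. Irgm1, Irgm2 and Igtp belong to the GMS class, whose members carry a methionine in the nucleotide-binding motif, sit on the cell's own membranes (Golgi, endoplasmic reticulum, lysosomes, lipid droplets) and hold the others inactive. Iigp1 (also Irga6), Tgtp1 and Tgtp2 (together Irgb6) and Ifi47 (also Irgd) belong to the GKS class, the effectors that load onto the vacuoles of parasites such as Toxoplasma and bacteria such as Chlamydia and break them. Hepatocytes and many other cell types can make them, and injured liver after Con A is a tissue in which activated T and NKT cells release interferon gamma.

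The promoters of the members were searched for the letters of the elements through which interferons act, because all members moved together in these livers. The core of the interferon-stimulated response element (ISRE, bound by IRF proteins) was taken as GAAA, any 2 bases and GAAA again, and the gamma-activated site (GAS, an element of interferon gamma responses) was written TTCNNNGAA. Both strands of the 250 bases before the RefSeq start (GRCm38.p6) were searched, and the promoters of 6 members were used. Iigp1 was left out by name, so the shares below do not cover it. The ISRE core was found in 5 of these 6 promoters, against 2.98% of 32851 promoters in all, and the GAS in 4 of 6, against 7.02%. Irgm2, Igtp, Tgtp1 and Tgtp2 held both motifs, against 0.332% of all promoters. The stretches that hold them are given below 5′ to 3′ on the gene's strand, with the GAS and then the ISRE core in capitals. Those of Irgm2, Igtp, Tgtp1 and Tgtp2 are shown because in each the GAS starts 11 bases before the ISRE core. That of Irgm1 is shown because its 2 ISRE matches overlap, so that their shared run of capitals holds both.
Irgm2 (chr11:58214853-58214952, plus strand): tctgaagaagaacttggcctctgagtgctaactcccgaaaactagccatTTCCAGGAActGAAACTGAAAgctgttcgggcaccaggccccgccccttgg
Igtp (chr11:58199462-58199555, plus strand): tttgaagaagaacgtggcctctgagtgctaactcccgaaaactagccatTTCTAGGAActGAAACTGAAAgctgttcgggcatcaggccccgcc
Tgtp1 (chr11:48992284-48992383, minus strand): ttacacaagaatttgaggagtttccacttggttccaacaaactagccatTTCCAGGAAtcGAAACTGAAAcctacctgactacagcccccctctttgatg
Tgtp2 (chr11:49064243-49064342, minus strand): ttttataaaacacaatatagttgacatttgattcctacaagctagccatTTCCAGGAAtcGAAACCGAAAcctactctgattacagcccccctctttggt
Irgm1 (chr11:48871431-48871460, minus strand): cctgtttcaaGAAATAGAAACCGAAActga

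The stretches of Irgm2 and Igtp were identical at 90 of 94 bases, and those of Tgtp1 and Tgtp2 at 64 of 100 bases. The ISRE core began 64 bases before the start in Irgm2, 34 in Igtp, 77 in Tgtp1 and 70 in Tgtp2. Irgm1 had no GAS match in the window, and its RefSeq start lies inside the transcript listed in the table. Ifi47 had neither motif in its window. A match is a run of letters and not a measured binding site, and no binding was measured here.

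The values are scores, whole numbers that the authors had normalized between mice and not read counts, so the sequencing depth is unknown. Every mouse has nearly the same set of scores (median 352, totals of 17649654 to 17657159), and a score therefore acts as a rank within the liver. All fold changes are on the log2(score + 1) scale, and calls required a fold change over 1.5 and, in limma, an adjusted p (Benjamini-Hochberg) below 0.05.

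Con A raised all members. In the comparison of Con A + PBS with control livers, 7 of 7 members were called higher, against 19.5% of all genes, and in 7 of 7 the 4 mice of each group did not overlap, against 27.1% of all genes that were higher without overlap. The median log2 fold change of the members was 2.43, and that of all genes was 0.05. The increase ran from 3.58-fold (Iigp1) to 34.7-fold (Tgtp1), which placed the members between rank 58 and rank 432 of 11289 genes by log2 fold change. In bulk liver, more cells that make an IRG and more IRG mRNA per cell cannot be told apart. Replicates are numbered livers, and p-values describe only the spread between them.

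**Figure D1:**
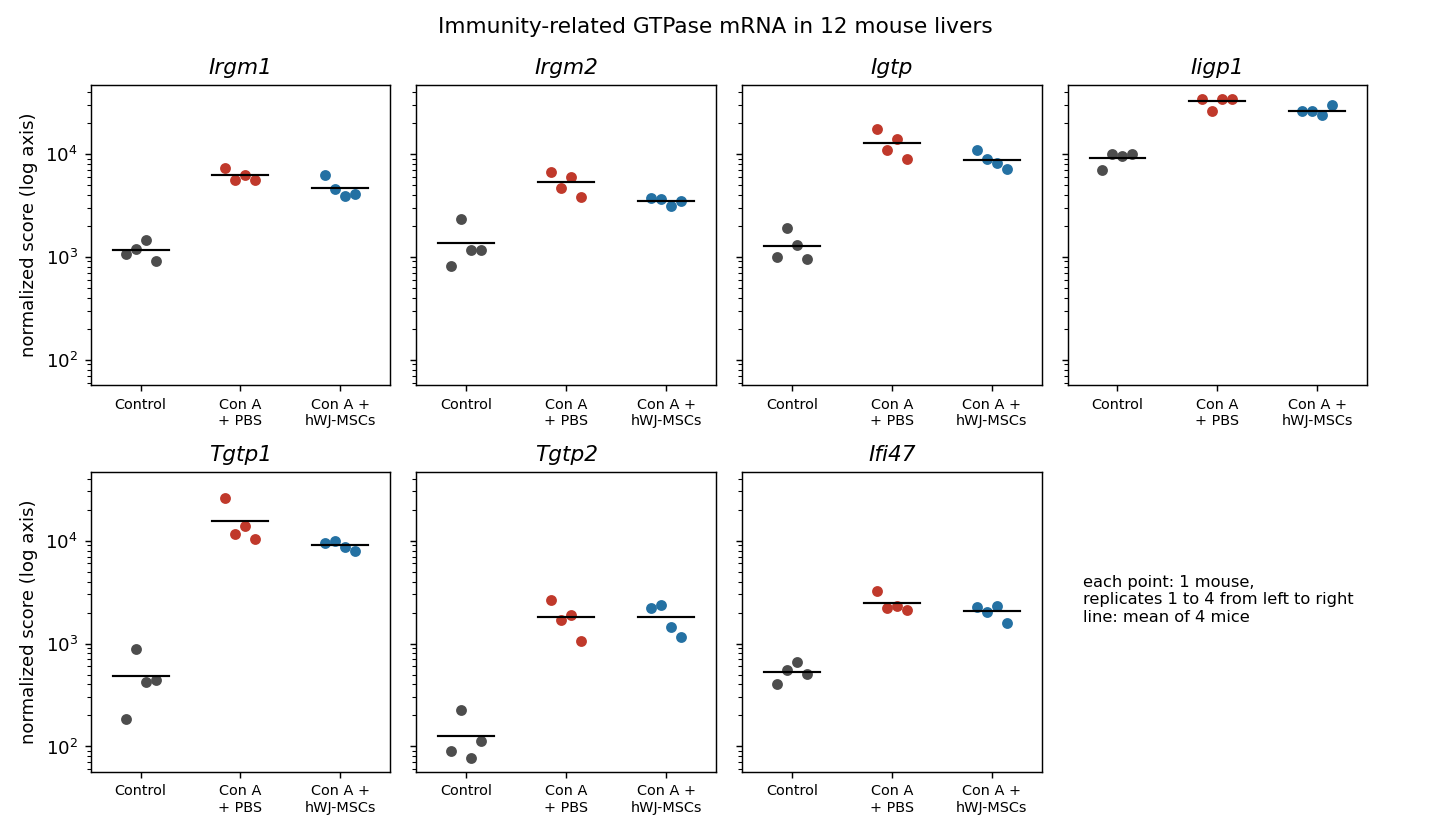
Normalized scores (log axis) of the 7 immunity-related GTPases in 12 livers, by group, with 1 point per mouse and a line at the mean of 4 mice. In every panel the control mice lie below all mice that received Con A, while the PBS and hWJ-MSCs arms separate only for Irgm2 and Tgtp1.

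Among the GMS regulators, Igtp (also Irgm3), found on the endoplasmic reticulum and lipid droplets, had the largest change. Its scores were 992, 1895, 1308 and 944 in the control mice and 17600, 10888, 13888 and 8856 in the Con A + PBS mice. The lowest Con A + PBS liver was thus several times above the highest control liver. The log2 fold change was 3.33 (SE 0.25, limma with Benjamini-Hochberg adjusted p = 9.08e-07).

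Irgm1, which is needed for resistance to many intracellular pathogens and for the survival of stimulated lymphocytes, was at 1060, 1179, 1453 and 918 in control livers and at 7311, 5526, 6287 and 5526 after Con A + PBS. The groups were far apart, and the spread within each was narrow. Its log2 fold change was 2.43 (SE 0.18, limma with Benjamini-Hochberg adjusted p = 7.62e-07).

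Irgm2, a Golgi-associated regulator, was at 811, 2350, 1154 and 1167 in control livers and at 6715, 4633, 6017 and 3844 after Con A + PBS. Control mouse 2 stood high among the controls but stayed below every Con A + PBS mouse. The log2 fold change of 2.03 had an SE of 0.27 (limma with Benjamini-Hochberg adjusted p = 5.92e-05), the weakest p of the 7 members.

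Among the GKS effectors, Tgtp1 changed most. It went from 184, 878, 421 and 445 in control livers to 25900, 11676, 14006 and 10414 after Con A + PBS. Control mouse 2 was the highest control and mouse 1 the lowest, and all Con A + PBS mice were far above both. At least 23.5% of all genes scored above Tgtp1 in each control mouse, and at most 1.68% did in each Con A + PBS mouse. Its log2 fold change was 5.11 (SE 0.39, limma with Benjamini-Hochberg adjusted p = 9.79e-07).

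Tgtp2, its near-identical neighbour, was low in the control livers, at 90, 224, 77 and 114, and reached 2630, 1698, 1878 and 1056 after Con A + PBS. The groups did not overlap, but the level stayed well below that of Tgtp1. The log2 fold change was 3.89 (SE 0.35, limma with Benjamini-Hochberg adjusted p = 3.55e-06). The split between this pair is uncertain. Of the 150-base stretches of the listed Tgtp1 transcript, 71.3% occur unchanged in that of Tgtp2, and reads from them cannot be assigned to either. With the scores of the pair summed, the log2 fold change was 4.91 (SE 0.36, limma with Benjamini-Hochberg adjusted p = 8.46e-07). No other pair of listed member transcripts shared a stretch of 150 bases, and only Irgm2 and Igtp shared stretches of 50 (5.84% of those of Irgm2 and 10.1% of those of Igtp).

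Ifi47 scored 406, 554, 668 and 504 in control livers and 3252, 2190, 2330 and 2133 after Con A + PBS, with no overlap and mouse 1 highest. Its log2 fold change was 2.21 (SE 0.18, limma with Benjamini-Hochberg adjusted p = 1.87e-06), close to that of Irgm1.

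Iigp1, the best studied effector, had the smallest fold change and the highest control scores of the members. Its scores were 6950, 9876, 9424 and 9876 in control livers and 34410, 25834, 34410 and 34410 after Con A + PBS. All control livers lay below all Con A + PBS livers, and 3 of 4 Con A + PBS livers had the same score. Across all mice and genes, the scores between the lowest and highest Iigp1 score of the Con A groups have 3 gaps over 5%, of 8.35%, 14.2% and 14.9%, and the distinct Iigp1 scores of those groups lie on different sides of these gaps. The log2 fold change was 1.84 (SE 0.15, limma with Benjamini-Hochberg adjusted p = 2.06e-06).

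The members did not rise by the same factor. The log2 ratio of each of the 21 pairs of members was taken within each mouse and compared between groups by a two-sided exact permutation test, which cannot go below p = 0.0286 with 4 mice against 4. In Con A + PBS versus control, 14 of 21 pairs changed their ratio (exact permutation p = 0.0286 for each, Benjamini-Hochberg adjusted p = 0.0429). Tgtp1 was in 6 of these pairs, since it rose more than each of the other members. Igtp also rose more than Irgm2, its direct neighbour on the chromosome. The log2 ratio of Irgm2 over Igtp moved from 0.04 (SD 0.32, n = 4), near equality, to −1.26 (SD 0.09, n = 4). Tgtp1 over Tgtp2 went from 1.85 (SD 0.59, n = 4) to 3.07 (SD 0.27, n = 4), a value that depends on how shared reads were split. For 7 pairs the ratio did not pass the test, among them Irgm2 with Ifi47 (difference −0.18, exact permutation p = 0.714) and Irgm2 with Iigp1 (difference 0.19, exact permutation p = 0.486).

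Between classes, the mean log2 score of the 4 GKS effectors minus that of the 3 GMS regulators was −1.02, −0.77, −0.95 and −0.50 in the control mice. It was −0.03, −0.17, −0.25 and −0.10 in the Con A + PBS mice. With hWJ-MSCs it was −0.10, 0.17, 0.14 and −0.04. The effector mean was thus below the regulator mean in each control liver and between −0.25 and 0.17 from it in the Con A livers, as a description of means. Single effectors did not all follow it, since Iigp1 scored above every regulator in each control liver and Tgtp1, Tgtp2 and Ifi47 scored below every regulator.

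Per kilobase of listed transcript, Iigp1 was the highest member in all groups, at 3086 ± 480 (SD, n = 4) score units per kb in control livers. Igtp followed at 635 ± 216, and Irgm2 (396 ± 195), Irgm1 (301 ± 59.2), Ifi47 (301 ± 61.5), Tgtp1 (171 ± 102) and Tgtp2 (44.9 ± 23.8) came after it. In the control group only Iigp1 was clear of the next member, and each member from Irgm2 down overlapped the one above it. After Con A + PBS the order was Iigp1 (11024 ± 1465), Igtp (6334 ± 1882), Tgtp1 (5490 ± 2512), Irgm1 (1608 ± 221), Irgm2 (1533 ± 376), Ifi47 (1397 ± 295) and Tgtp2 (646 ± 230). Igtp and Tgtp1 overlapped, as did Irgm1, Irgm2 and Ifi47 in turn, and these blocks were clear of each other. With hWJ-MSCs the blocks were the same, with Iigp1 at 8970 ± 862, Igtp at 4333 ± 788 and Tgtp1 at 3187 ± 307 score units per kb. Irgm1 (1227 ± 284), Ifi47 (1157 ± 193) and Irgm2 (1010 ± 78.4) came next, and Tgtp2 was last at 638 ± 210. For Irgm1 the length is that of its non-coding listed transcript.

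The second comparison asks whether hWJ-MSCs changed the IRG response to Con A. All 7 point estimates were below 0, as were 49.8% of all genes, but none was called. In limma 0 of 7 members passed the Benjamini-Hochberg threshold, against 4.38% of all genes called lower, and 1 of 7 (Irgm1) had an unadjusted p below 0.05, against 16.6% of all genes lower at that level. By the exact permutation test over mice 2 of 7 members, Irgm2 and Tgtp1, separated the groups without overlap, against 11.6% of all genes lower without overlap. The median log2 fold change of the members was −0.41, against 0.00 for all genes.

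Irgm2 was at 3728, 3624, 3109 and 3520 in the Con A + hWJ-MSCs livers, where the Con A + PBS livers held 6715, 4633, 6017 and 3844. The lowest Con A + PBS mouse lay just above the highest mouse with hWJ-MSCs, and the 4 livers with hWJ-MSCs were close together. The log2 difference was −0.57 with a 95% interval of −1.15 to 0.01 (limma with Benjamini-Hochberg adjusted p = 0.153, two-sided exact permutation p = 0.0286, the smallest possible).

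Tgtp1 was at 9480, 9922, 8577 and 8006 with hWJ-MSCs against 25900, 11676, 14006 and 10414 with PBS. Here too the groups were next to each other without overlap, and Con A + PBS mouse 1 stood alone at the top. The log2 difference was −0.69 with an interval of −1.53 to 0.15 (limma with Benjamini-Hochberg adjusted p = 0.222, two-sided exact permutation p = 0.0286), and without Con A + PBS mouse 1 it was −0.41. With Tgtp1 and Tgtp2 summed it was −0.60 (limma with Benjamini-Hochberg adjusted p = 0.257).

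Irgm1 gave 6287, 4530, 3900 and 4086 with hWJ-MSCs against 7311, 5526, 6287 and 5526 with PBS. Of the mice with hWJ-MSCs, mouse 1 lay within the Con A + PBS range and the others below it. The log2 difference was −0.41, with an interval of −0.79 to −0.02 before adjustment (limma with Benjamini-Hochberg adjusted p = 0.124).

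Igtp was at 10888, 8856, 8198 and 7100 with hWJ-MSCs against 17600, 10888, 13888 and 8856 with PBS, so 2 of 4 mice had scores that also occurred with PBS and 2 lay below. Its log2 difference was −0.52 (interval −1.06 to 0.02, limma with Benjamini-Hochberg adjusted p = 0.159).

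Iigp1 was at 25834, 25834, 23644 and 29706 with hWJ-MSCs, and 1 of 4 Con A + PBS mice had that same score of 25834. The log2 difference was −0.29 (interval −0.63 to 0.04, limma with Benjamini-Hochberg adjusted p = 0.197). Ifi47 was at 2276, 2016, 2330 and 1582 with hWJ-MSCs, where 2 of 4 mice lay inside the Con A + PBS range and 2 below it. Its log2 difference was −0.27 (interval −0.66 to 0.13, limma with Benjamini-Hochberg adjusted p = 0.316), with −0.13 without Con A + PBS mouse 1 and −0.15 without hWJ-MSCs mouse 4.

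Tgtp2 showed no direction. Its scores with hWJ-MSCs were 2190, 2387, 1444 and 1149 against 2630, 1698, 1878 and 1056 with PBS, and the groups were interleaved. The log2 difference was −0.01 with a wide interval of −0.77 to 0.76 (limma with Benjamini-Hochberg adjusted p = 0.995), and its sign turned when single mice were left out, over a range of −0.24 to 0.20.

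**Figure D2:**
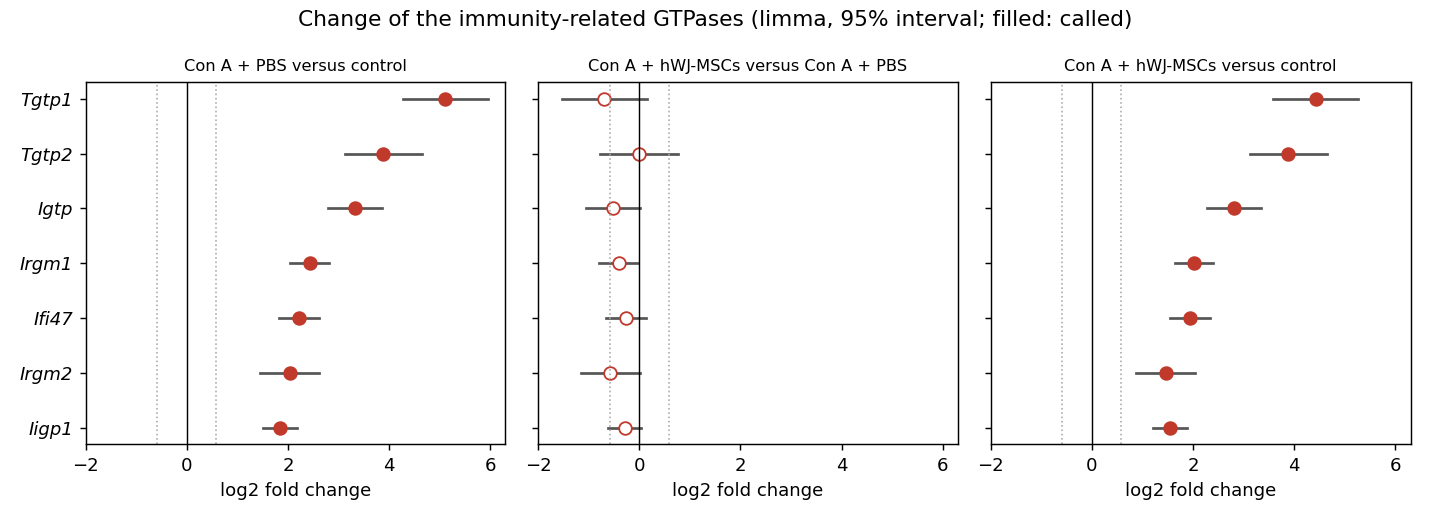
Log2 fold change (x axis) of each member (y axis) with its 95% interval from limma in the 3 comparisons, with filled points for called members and dotted lines at a fold change of 1.5. All 7 points are filled and to the right in both comparisons with control, and all 7 are open and lie between −0.69 and −0.01 in the comparison of the hWJ-MSCs arm with the PBS arm.

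Of 21 pairs of members, 0 passed the Benjamini-Hochberg threshold of the exact permutation test for a changed within-mouse ratio between the hWJ-MSCs and PBS arms. With the floor of that test a change in only a few pairs cannot pass, so this count cannot show that the ratios stayed the same. In 1 pair, Igtp over Tgtp2, the unadjusted exact permutation p was 0.0286 (adjusted 0.45). Its log2 ratio was 2.33 (SD 0.32) with hWJ-MSCs against 2.84 (SD 0.17) with PBS, n = 4 each.

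The part of the Con A response that was missing in the hWJ-MSCs arm was computed on the log2 scale, for each mouse against the means of the other groups, and was 28.1 ± 5.68% for Irgm2 (SD, n = 4). Irgm1 had 16.8 ± 12.8%, Iigp1 15.8 ± 7.39% and Igtp 15.6 ± 7.73%. Tgtp1 had 13.5 ± 2.73% and Tgtp2 0.194 ± 12.8%, and the 4 mice ranged from 2.98% to 28.2% for Ifi47. For Irgm1 and Tgtp2 single mice fell below 0. In an alternative chosen after seeing the data, leaving out each mouse in turn, Con A + PBS mouse 1 lowered the mean share to 8.55% for Tgtp1 and to 6.16% for Ifi47. Without hWJ-MSCs mouse 4 Ifi47 had 6.63%. Over the 12 mice left out in turn Tgtp2 lay between −5.29% and 5.90%. The SD covers the mice with hWJ-MSCs only and not the spread of the other groups.

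Against control livers, the Con A + hWJ-MSCs livers kept all members high. Here 7 of 7 were called higher, against 13.6% of all genes, and 7 of 7 did not overlap, against 20.6% of all genes that were higher without overlap. The log2 fold changes were 4.42 for Tgtp1, 3.88 for Tgtp2, 2.81 for Igtp, 2.02 for Irgm1, 1.95 for Ifi47, 1.55 for Iigp1 and 1.46 for Irgm2. The weakest of these, Irgm2, had a limma Benjamini-Hochberg adjusted p of 0.00116. This comparison shares its mice with the other comparisons, so the similar order of the members in it is not separate evidence.

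Within groups, the members tended to move together from mouse to mouse, though not in every mouse. Control mouse 1 lay below its group mean in 7 of 7 members and control mouse 2 above it in 7 of 7, with a median deviation of 0.62 on the log2 scale. Con A + PBS mouse 1 was above its group mean in 7 of 7 members (median deviation 0.41), mouse 2 below in 7 of 7 and mouse 4 below in 6 of 7 (median deviation −0.43). Among the mice with hWJ-MSCs, mouse 1 was above in 6 of 7 and mouse 3 below in 6 of 7. The other mice were more mixed. Control mouse 3 and Con A + PBS mouse 3 were above in 5 of 7, control mouse 4 and hWJ-MSCs mouse 4 below in 5 of 7. Mouse 2 with hWJ-MSCs was above in 4 of 7. After subtraction of each group's mean, the Pearson correlation over 12 mice between pairs of members ran from 0.14 to 0.92 with a median of 0.61 over 21 pairs. Irgm2 and Tgtp1 were the most alike (0.92), and Iigp1 and Tgtp2 the least (0.14). Over all mice without that subtraction it ran from 0.92 to 0.99. These are descriptions over livers that share the library and the normalization of each mouse.

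**Figure D3:**
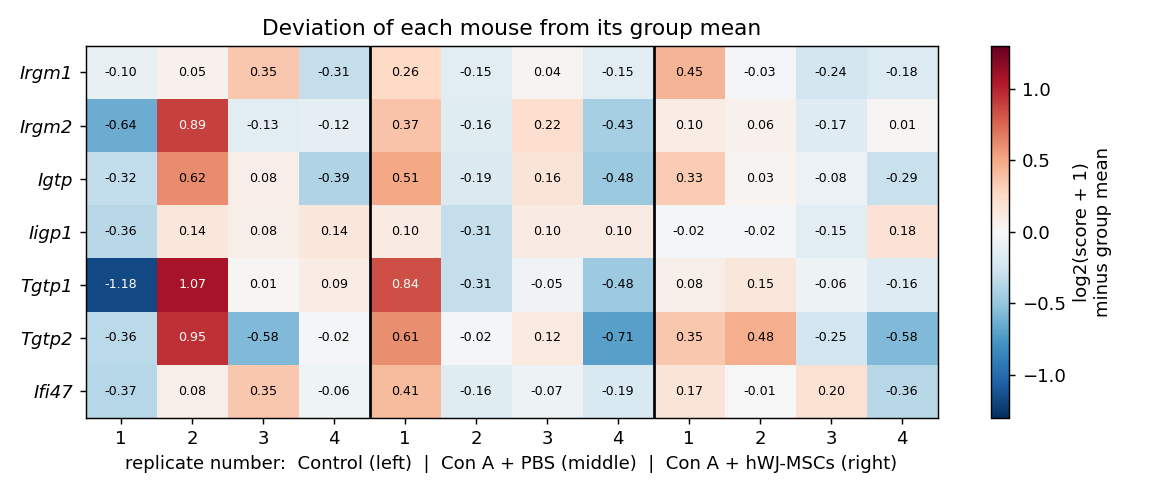
Deviation of each mouse (columns, replicate number within group) from its group's mean log2(score + 1) for each member (rows), as colour and printed value. Control mouse 2 and Con A + PBS mouse 1 are above their group's mean in all 7 members, and the largest deviations are those of Tgtp1 in control mice 1 and 2, at −1.18 and 1.07.

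The genes most like the mean of the members over the 12 mice were Tap1 (r = 0.99), which carries peptides to MHC class I, Ly6a (0.99), Oasl2 (0.99), Gbp6 (0.99), a guanylate-binding protein, and Irf7 (0.99), an interferon regulatory factor. After subtraction of the group means they were Hs1bp3 (0.89), Slfn9 (0.88), Psip1 (0.87), Gm4841 (0.86), itself an IRG gene, and Cnnm4 (0.86). The median over all other genes was 0.08 before and 0.01 after that subtraction, over the same 12 mice.

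Further genes of the IRG family were looked up by name, and 6 of 15 symbols were in the table. Of these 5 were called higher in Con A + PBS than in control livers, against 19.5% of all genes, and Irgq, a distant relative, was at a log2 fold change of −0.12. Gm4841 changed by 3.42, Gm5431 by 2.26, F830016B08Rik by 1.68, Gm4951 by 0.91 and 9930111J21Rik2 by 0.71 on the log2 scale. Gm4841, Gm4951 and F830016B08Rik lie beside Iigp1, and Gm5431 and 9930111J21Rik2 lie among the first cluster on chromosome 11. In the second comparison 3 of 6 of these relatives were called lower with hWJ-MSCs than with PBS, against 4.38% of all genes.

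F830016B08Rik ranged from 118 to 164 in control livers, from 200 to 797 with Con A + PBS and from 110 to 168 with hWJ-MSCs. Its livers with hWJ-MSCs thus covered the control range and lay below every Con A + PBS liver. The log2 difference between the hWJ-MSCs and PBS arms was −1.63 (SE 0.33, limma with Benjamini-Hochberg adjusted p = 0.021), and the call was lost in 3 of 12 fits that left out 1 mouse.

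Gm4951 ranged from 1519 to 1875 in control livers, from 2792 to 3750 with Con A + PBS and from 1592 to 2244 with hWJ-MSCs. It fell by 0.78 on the log2 scale relative to Con A + PBS (SE 0.14, limma with Benjamini-Hochberg adjusted p = 0.0188), a call lost in 2 of 12 such fits. For 9930111J21Rik2 the difference was −0.66 (SE 0.18, limma with Benjamini-Hochberg adjusted p = 0.0375). Its call was lost at least without Con A + PBS mouse 1 and without hWJ-MSCs mouse 3. Whether these relatives and the members differ in their response was not tested as a difference.

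The genes upstream of the family were described from lists that follow the pathway from ligand to transcription factor. Of 29 genes of the interferon pathway 22 were in the table, and 14 were called higher and 0 lower after Con A + PBS, against 19.5% of all genes called higher and 19.2% lower. The median log2 fold change of this list was 0.87. Its 6 interferon ligands, Ifng among them, are not among the rows of the table, so the inducing signal itself was not analysed here.

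Of the 4 interferon receptor chains, those for interferon gamma were called higher, Ifngr2 by 0.81 and Ifngr1 by 0.73 on the log2 scale, and those for type I interferon, Ifnar1 and Ifnar2, were not called (0.20 and −0.34). None of the kinases Jak1, Jak2 and Tyk2 passed the fold threshold. Of 9 transcription factors 8 were called higher, against the same 19.5% of all genes. The log2 fold change after Con A of Irf7 was 2.54 (SE 0.17), of Batf2 2.29 (SE 0.34), of Irf8 2.01 (SE 0.25) and of Irf1, which binds ISRE-like elements, 1.52 (SE 0.20).

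The 2 largest changes on the list were those of feedback inhibitors. Socs1, which blocks JAK kinases, ranged from 7 to 19 in control livers and from 396 to 735 with Con A + PBS, a log2 fold change of 5.46 (SE 0.30). Usp18 (3.54), Socs3 (2.15) and Ptpn2 (1.40) were also called higher, and Pias1 and Ptpn6 were not. With hWJ-MSCs 2 of these 22 genes were called lower than with PBS, against 4.38% of all genes. Socs1 ranged from 149 to 272 in these livers, below every Con A + PBS mouse. Its log2 difference was −1.44 (SE 0.30, limma with Benjamini-Hochberg adjusted p = 0.0224), and the call was lost in 3 of 12 fits that left out 1 mouse. For Usp18 it was −0.71 (SE 0.22, limma with Benjamini-Hochberg adjusted p = 0.0495), and the call was lost in 10 of 12. Irf1 was not called (−0.63, SE 0.20, limma with Benjamini-Hochberg adjusted p = 0.0523), but it passed the threshold under 3 of 9 alternatives.

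Guanylate-binding proteins (GBPs) are the other large GTPases that interferon gamma induces and that act with IRGs on vacuoles. Of 11 GBP genes 8 were in the table, and 7 of these 8 were called higher after Con A + PBS, against 19.5% of all genes. The log2 fold change was 5.99 for Gbp2, with Gbp3 at 3.56, Gbp7 at 3.37 and Gbp6 at 2.96. The list median was 2.96, against 2.43 for the IRG members. With hWJ-MSCs 4 of 8 were called lower than with PBS, against 4.38% of all genes. Gbp7 ranged from 2266 to 5040 with Con A + PBS and from 976 to 1794 with hWJ-MSCs, without overlap. Its log2 difference was −1.50 (SE 0.25, limma with Benjamini-Hochberg adjusted p = 0.0174), and the call was lost in 3 of 12 fits that left out 1 mouse. Gbp2 (−1.18), Gbp9 (−0.98) and Gbp3 (−0.80) were the others, and the call of Gbp2 was lost in 9 of 12 and that of Gbp3 in 4 of 12 such fits. The call of Gbp9 was lost at least without Con A + PBS mouse 1 and without hWJ-MSCs mouse 3. A difference between GBPs and IRGs in this response was not tested.

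The conjugation machinery of ATG8 proteins, which IRGs need to be steered to vacuoles, and ubiquitin adaptors that follow them there made up the last list. Of 19 genes 18 were in the table, with a median log2 fold change of 0.07 after Con A + PBS. Of these 18, 3 were called higher and 2 lower, shares below the 19.5% and 19.2% of all genes. Tax1bp1 (1.25), Trim21 (1.05) and Gabarap (0.69) were the higher ones, and Atg3, the enzyme that attaches ATG8 proteins to lipid (−1.01), and Gabarapl1 (−0.92) were the lower ones. Atg3 was called higher with hWJ-MSCs than with PBS (0.62, SE 0.16, limma with Benjamini-Hochberg adjusted p = 0.0311), and the call was lost in 6 of 12 fits that left out 1 mouse.

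**Figure D4:**
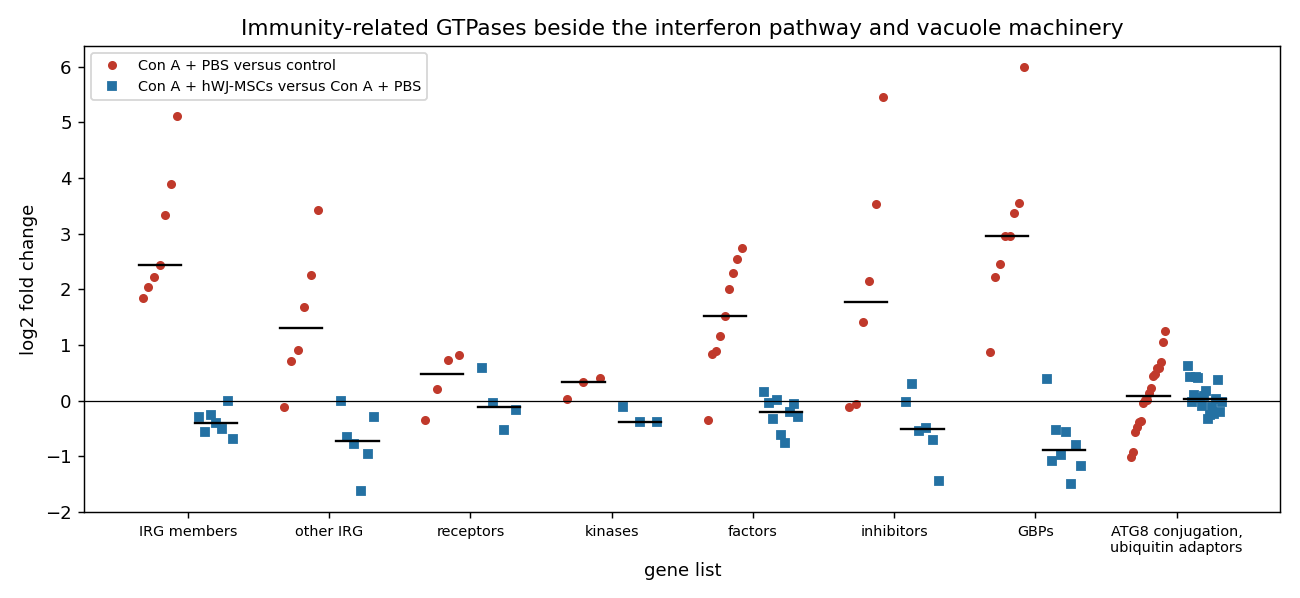
Log2 fold change (y axis) of the 7 members and of the genes of each pathway list (x axis), with 1 circle per gene for Con A + PBS versus control, 1 square for the hWJ-MSCs arm versus the PBS arm and a line at each list's median. The members lie between 1.84 and 5.11 after Con A, and the GBPs reach 5.99, while the median of the ATG8 and ubiquitin list is near 0.

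Across the pathway lists, 54 of 74 genes were in the table, and 10 of them were called between the hWJ-MSCs and PBS arms (1 higher and 9 lower, against 4.2% of all genes called higher and 4.38% lower). Single mice decided this count. It was 0 without Con A + PBS mouse 1 and 0 without Con A + hWJ-MSCs mouse 3, 1 without Con A + hWJ-MSCs mouse 2, 4 without Con A + PBS mouse 3 and 15 without Con A + PBS mouse 2. The count of members called, 0 of 7, was the same in all of these fits. Without Con A + PBS mouse 1 only 5 of all genes were called higher and 2 lower, so in such fits that count says little about the members.

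Other cell types moved with the members, and their part in the result was not tested. The counts of markers called after Con A + PBS stand against 19.5% of all genes called higher and 19.2% called lower. Hepatocyte markers (10 of 10 in the table, 5 called lower) marked the tissue as liver, with summed scores of 1023000 to 1243026 in control, 725119 to 758886 in Con A + PBS and 758857 to 825707 in Con A + hWJ-MSCs livers. Alb held the largest score, 341028, in every liver, and Ahsg was at 147767 in every Con A liver. These sums depend on which genes hold a few fixed top scores and do not measure the number of hepatocytes. All 8 neutrophil markers were called higher after Con A + PBS, with summed scores of 73 to 163 in control livers, 1268 to 2166 with Con A + PBS and 885 to 1875 with hWJ-MSCs. All 6 monocyte markers were called higher too (361 to 470, 1684 to 1969 and 1475 to 2291). Of 10 T cell markers 3 were in the table and called higher (15 to 43, 226 to 358 and 222 to 313), and the defining Cd3e, Cd3d and Cd3g were not among the rows. Of 8 NK cell markers 4 were in the table and 3 called higher (190 to 276, 710 to 1093 and 651 to 1234). Kupffer cell and macrophage markers went the other way, with 9 of 10 called lower and 1, Cd68, higher (5813 to 9268, 1801 to 2676 and 906 to 2583). Sinusoidal endothelial markers (5 of 8 called lower and 1 higher) and stellate cell markers (3 of 8 lower) were also among those with calls. Of the 3 cholangiocyte markers found, 1 was called higher, and no B cell marker was in the table. None of the marker genes in the table was at 0 in every liver.

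Around the members, 28 other genes had their start within 500 kb of a member's start. The 5 among them that were on the list of IRG relatives were all called higher after Con A + PBS. Of the other 23 genes 5 were called higher and 2 lower, against 19.5% and 19.2% of all genes. Whether any of these 23, such as Gm12185 inside the first cluster, belongs to the IRG family was not examined. Among all 28, the largest changes were those of Gm12185 (4.22), between Gm5431 and Tgtp1, and Btnl9 (−4.04), a butyrophilin-like gene beyond Ifi47. Gm4841 (3.42) and Synpo (2.63) followed, and Synpo encodes an actin-associated protein and starts 248 kb from Iigp1. The median log2 fold change of the 23 neighbours not on that list was −0.10. With hWJ-MSCs 5 of 28 neighbours were called lower than with PBS, against 4.38% of all genes. Of these, 3 are the IRG relatives F830016B08Rik, Gm4951 and 9930111J21Rik2. The neighbour count was not computed with single mice left out. All genes called lower there fell from 495 to 2 without Con A + PBS mouse 1 and to 3 without hWJ-MSCs mouse 3.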

How the data were processed

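Liver mRNA of 12 mice had been selected by poly-A, made into NEBNext Ultra libraries and read as paired ends on a NovaSeq instrument. The submitters' processing notes name Bowtie2 2.2.1, RSEM 1.2.18 and the build mm10 without roles; whether strand was used is not given. The authors deposited a whole-number score per gene and mouse, which had been made comparable across mice and is no raw count. The column totals agree to 0.0425% and 82.1% of ranks hold the same score in all mice, so no count test was used. Depth is unknown, and no counting interval is given. No column of values was left out.

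The score + 1 was put on the log2 scale and fitted for all 11289 genes with limma 3.58.1 (R 4.3.3; lmFit, eBayes with trend) in a single model of 12 mice. The count test that the paper names was not used, since it needs counts. Called genes had a Benjamini-Hochberg adjusted p below 0.05 over all genes and a fold change over 1.5. Ratios between members and single members were tested by two-sided exact permutation over mice (scipy 1.17.1). The fit was also run on simulated data, whose outcome is not described here. Lists were described by counts and medians. Promoters came from RefSeq (GRCm38.p6), transcript lengths and shared stretches from GENCODE M21. Named were all members, up to 4 called genes per pathway list with the largest change (with Irf1 and Socs1 in any case, and 1 gene that is not reported here), up to 4 called neighbours and the 5 most alike genes. Exceptions, chosen after their values were seen, are 9930111J21Rik2, Irgq, Gbp9, Gabarap, Ifnar1, Ifnar2, Jak1, Jak2, Tyk2, Pias1, Ptpn6 and Cd68. Alternatives were the pseudocount (10), a filter that kept mean scores from 100 up, centring on the median, quantiles, no trend, only the 8 mice compared, unadjusted p, a fold change over 2, each mouse left out, the replicate number as a block and a 200 kb window. Summing Tgtp1 and Tgtp2 was added after seeing the data. The members and lists were chosen with earlier results of these data known.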

Additional observations from a re-analysis of the deposited data

Results flagged for a closer look

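Of 21 groups of 4 mice (7 members in 3 groups), 2 held a mouse far from the others by Dixon's criterion, which chance alone meets in about 1 in 20 groups, and both concern Iigp1. In the control group the lowest mouse, mouse 1, was at a score of 6950 where the others were at 9424, 9876 and 9876. In the Con A + PBS group the lowest mouse, mouse 2, was at 25834 where the others were all at 34410. The criterion counts ties as no distance, and 3 of 4 Con A + PBS mice and 2 of 4 control mice were tied. Without control mouse 1 the log2 fold change of Iigp1 after Con A was 1.72, and without Con A + PBS mouse 2 it was 1.94, both called.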

How the results depend on the processing

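The members called were 7 after Con A, 0 between the hWJ-MSCs and PBS arms and 7 against control under every alternative run, each mouse left out and the replicate block included (6, 0 and 6 of 6 with Tgtp1 and Tgtp2 summed). Single members kept their direction and call, except Tgtp2 between the hWJ-MSCs and PBS arms, which turned in 4 of 12 fits without 1 mouse (−0.24 to 0.20). In that comparison Irf7 (−0.19 to 0.037), Batf2 (−0.44 to 0.11) and Tax1bp1 (−0.13 to 0.031) also turned, as did F830016B08Rik against control (−0.047 to 0.17), none of them called. Pathway genes called between the hWJ-MSCs and PBS arms numbered 10, 0 to 15 without 1 mouse and 4 at a fold change over 2. Neighbours called there were 5, and 3 within 200 kb. All genes called there numbered 474 higher and 495 lower (910 and 787 by unadjusted p, 163 and 190 at a fold change over 2, 4 to 846 and 2 to 729 without 1 mouse). At a fold change over 2, 1107 genes were higher and 1284 lower after Con A, and 733 and 806 against control. The replicate numbers name different animals, and the sample labels used here give no pairs. Correlations of same-numbered mice ran from −0.12 to 0.38, and with 4 mice per group they cannot exclude a shared batch. Not every mouse correlated best with its own number. With the replicate block pathway genes called were 32, 11 and 27, and Gbp2 lost its call between the arms while Irf1 gained one. The block raised the count of all genes called between the hWJ-MSCs and PBS arms to 679 higher and 618 lower. With only the 8 mice compared Usp18, Gbp2 and Gbp3 lost theirs. The ratios between members have no value with a mouse left out or within pairs, since 4 against 3 mice and 4 pairs cannot reach the adjusted threshold. Scores without depth limit what low levels such as Tgtp2 in control livers can show.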
